A study of Mus musculus with 6 samples.

Results

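The genes described here are those of the major histocompatibility complex (MHC) class II presentation machinery. There are 10 of them among the 31054 features of each count matrix, chosen by symbol alone: H2-Aa, H2-Ab1, H2-Eb1, Cd74, H2-DMa, H2-DMb1, H2-DMb2, H2-Oa, H2-Ob and Ciita. All 10 were detected. They were followed in 6 single-cell RNA libraries of lung, each from 1 male C57BL/6 mouse of 21 months. In 3 of the mice (genotype p16-CreERT2/R26-LSL-DTR, label p16-DTR) tamoxifen lets cells that use the p16 promoter switch on the receptor for diphtheria toxin, and the 3 control mice (p16-CreERT2) carry the Cre without the receptor. Mice of both genotypes were given tamoxifen for 5 days and, 2 weeks later, diphtheria toxin for 5 days, and lungs were taken after another 2 weeks. Each library mixed 20000 sorted CD45- cells with 9000 sorted CD45+ cells, so the proportion of leukocytes was set at the sort. The comparison asks how lung cells differ once p16-expressing cells have been targeted.

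MHC class II molecules are pairs of an alpha and a beta chain that carry peptides from the endosomal pathway to the cell surface, where CD4 T cells read them. The chains assemble on the invariant chain (Cd74), which fills the groove until it is cut away. The DM heterodimer then exchanges the last fragment for peptide, and the DO heterodimer restrains DM. CIITA (Ciita) is the coactivator known as the main switch of class II transcription, which does not bind DNA itself but docks on factors sitting on the X and Y boxes of class II promoters. Dendritic cells, B cells and macrophages are the classical class II cells. In lung, alveolar type 2 epithelium and capillary endothelium are known to express class II too, which is why the non-immune cells are described here at length.

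Of the 10 genes, 8 lie within the class II region of chromosome 17, and 7 of these had promoter entries (RefSeq, GRCm38.p6, from 250 bases before to 50 bases after an annotated start). H2-Ab1, Cd74 and Ciita had none. The stretches below are shown because they carry the letters at which the promoters of the members resemble each other and at which H2-DMb1 and H2-DMb2 can be compared. Capitals mark GATTGG, the reversed CCAAT core of the Y box, and TGATGC, letters of the X box region. H2-Eb1 is shown at chr17:34305757-34305836, H2-Aa at chr17:34287843-34287922 (minus strand), H2-Ob at chr17:34238797-34238876, H2-DMb1 at chr17:34153105-34153134, H2-DMb2 at chr17:34145134-34145163 and H2-Oa at chr17:34092311-34092340, all 5′ to 3′ on the strand of the gene. Where the GENCODE gene model reaches into the stretch, 30 bases are shown, and otherwise 80.
H2-Eb1: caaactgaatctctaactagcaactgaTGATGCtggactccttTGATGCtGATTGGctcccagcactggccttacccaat
H2-Aa: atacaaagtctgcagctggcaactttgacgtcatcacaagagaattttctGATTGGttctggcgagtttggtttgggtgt
H2-Ob: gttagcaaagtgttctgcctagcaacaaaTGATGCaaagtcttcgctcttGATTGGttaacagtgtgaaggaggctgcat
H2-DMb1: TGATGCtaggctgattcactcagtGATTGG
H2-DMb2: TGATGCtaggctaagtcacttagtGATTGG
H2-Oa: cccattatctcagagaactgctctGATTGG

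GATTGG began 44 bases before the annotated start in H2-Oa, 49 in H2-Aa, 58 in H2-Ob, 60 in H2-Eb1, 62 in H2-DMb1 and 91 in H2-DMb2. TGATGC preceded it with a gap of 18 bases in H2-DMb1 and H2-DMb2, 15 in H2-Ob and 17 in H2-Eb1, where a further TGATGC stands next to GATTGG. Of the 2 H2-DMa entries, 1 had GATTGG 199 bases before its start and the other had neither set of letters in this window. Both strands were searched. H2-Eb1 held 1 more GATTGG on the other strand. GATTGG occurred in 16.1% of 32851 RefSeq promoters of the same length and TGATGC in 10.9%. TGATGC followed by GATTGG after 10 to 30 bases occurred in 47 promoters (0.143%). Of these, 4 belong to the members searched, which did not include Cd74. The letters were chosen with these promoters in view, so the shares describe and do not test. The promoters of H2-DMb1 and H2-DMb2 were identical at 208 of 247 aligned bases (84.2%).

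The last 500 transcript bases of H2-DMb1 and H2-DMb2, the part that 3′ libraries read, could be aligned over 334 bases, and 298 of these (89.2%) were identical. How reads that fit both genes were counted is not given in the sources used here, so a small level of either gene beside a high level of the other is uncertain. Positions in GRCm38 (GENCODE M21) are 34305867 to 34316674 on chromosome 17 for H2-Eb1, which overlaps Gm20513 on the opposite strand, 34282744 to 34287823 for H2-Aa and 34257689 to 34269419 for H2-Ab1. H2-Ob lies at 34238903 to 34254414, H2-DMb1 at 34153072 to 34160230 and H2-DMb2 at 34143307 to 34151555. H2-DMa spans 34119541 to 34139101 in an annotation that overlaps 4 other genes, Brd2 among them, and H2-Oa spans 34092340 to 34095234 and overlaps BC051537 on the opposite strand. Ciita lies on chromosome 16 at 10480059 to 10528418, with Dexi overlapping on the opposite strand. Whether the counting used strand is not given in the sources used here.

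The libraries held 13482 to 17332 barcodes and 254200305 to 344421685 unique molecular identifiers (UMIs), with medians of 16587.5 to 18149 UMIs per barcode. Pairs of libraries shared 59 to 94 barcodes, at most 0.586% of the smaller library. After the cell filter 91156 cells remained, and gates on summed marker scores, in which no member was used, placed 74725 of them (82.0%) in 34 classes. A class is therefore a range of a score: 4.79% of general capillary cells, 0.36% of alveolar type 2 cells and 27.1% of type 2 conventional dendritic cells lay within 0.05 of their cut. Cells passing the gates of more than 1 lineage, or of more than 1 screened leukocyte branch, were left out as mixed (3458, or 3.79%). Mixtures of natural killer with B cells and of neutrophils with macrophages were not screened. Cdkn2a, which encodes p16, had 7.10, 8.57 and 7.31 CPM (UMIs per 1000000 UMIs, here of a whole library) under the p16-DTR label against 1.15, 2.595 and 2.84 in the controls. It was thus higher, not lower, under the p16-DTR label, and every direction below holds for the libraries as labelled.

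Levels are in CPM, taken over all UMIs of a class in a library. Each transcript is counted by its 3′ end, so the values are not scaled by length, and how well each gene's 3′ end was captured was not measured. The summed level of the 10 members was highest in type 2 conventional dendritic cells (47030 ± 6339, SD, n = 6), interstitial macrophages (45280 ± 4343) and type 1 conventional dendritic cells (40230 ± 2452), whose ranges met. B cells followed at 22190 ± 1361, apart from the classes above and below. Ccr7 dendritic cells (14880), plasmacytoid dendritic cells (8937), plasma cells (8178) and alveolar macrophages (7281) came next, each from few cells. Alveolar type 2 cells, the surfactant-making epithelium, had 5613 ± 339.9. The means of nonclassical and classical monocytes were lower, at 3848 ± 1284 and 3062 ± 937, but the highest nonclassical library (5762) reached into the alveolar type 2 range of 5348 to 6241. General capillary endothelial cells had 2497 ± 322 and venous endothelial cells 1448 ± 158.

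**Figure D1:**
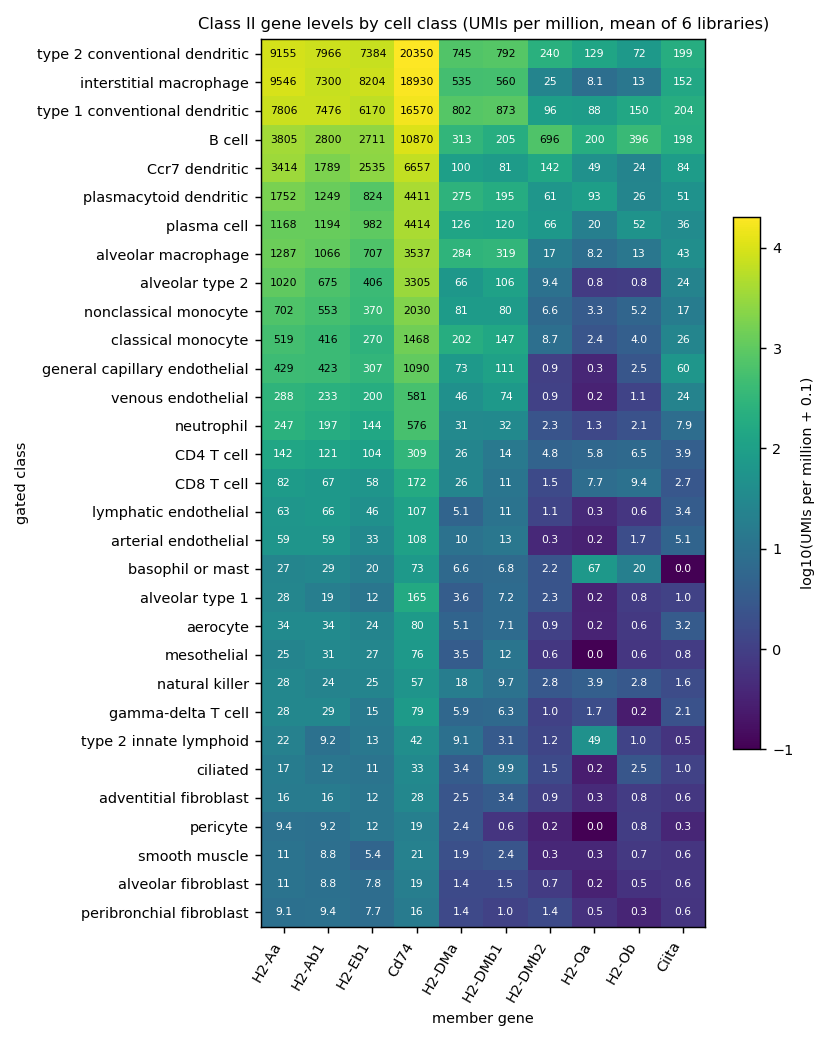
Mean level of each member over 6 libraries (CPM, numbers in the cells) by gated class in rows and gene in columns, coloured by log10(CPM + 0.1). Alveolar type 2 and general capillary cells have chains, Cd74, H2-DMa, H2-DMb1 and Ciita, while H2-Oa and H2-Ob are low there and high in B cells, and H2-DMb2 has 0.922 in general capillary, 9.37 in alveolar type 2 and 696 in B cells.

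Below these classes the sum dropped to 304 in lymphatic endothelium, 290 in arterial endothelium, 239 in alveolar type 1 cells and 190 in aerocytes, the capillary cells of gas exchange. Fibroblasts, pericytes and smooth muscle had 47.4 to 80.9. Within the capillary bed the sum was thus 2149 to 3075 in general capillary cells and 155 to 241 in aerocytes, with no overlap in the 6 libraries. The levels of neutrophils (1242 ± 802), CD4 T cells (736.5 ± 494.7) and natural killer cells (172.5 ± 119.5) varied several-fold between libraries and are taken up below.

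**Figure D2:**
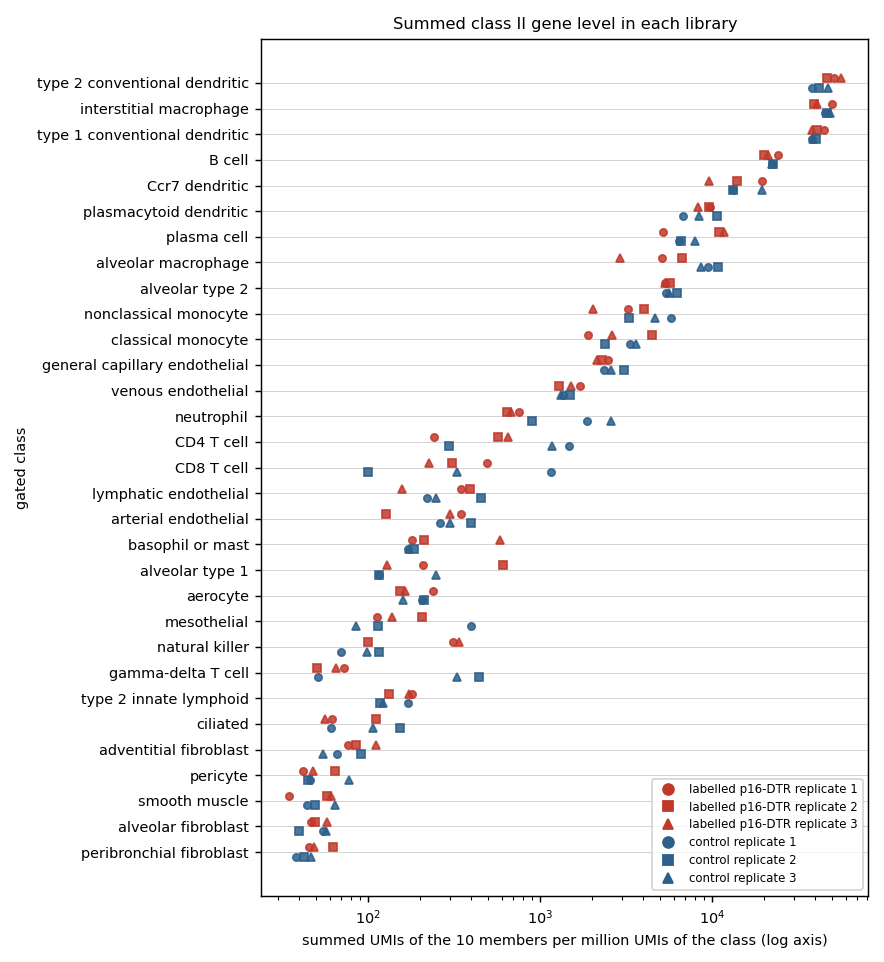
Summed level of the 10 members (CPM, log axis) in each class, 1 point per library, red for the libraries labelled p16-DTR and blue for controls. Points of a class lie close together in B, alveolar type 2 and general capillary cells and are spread in neutrophils, T cells and natural killer cells.

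The peptide-binding chains were the core of these levels. H2-Aa encodes the alpha chain of the I-A molecule, H2-Ab1 its beta chain and H2-Eb1 the beta chain of I-E. The I-E alpha chain gene, H2-Ea, was not among the features, so H2-Eb1 RNA does not show an I-E molecule. In general capillary cells, the largest class with 21859 cells, H2-Aa had 420, 389 and 355 CPM under the p16-DTR label and 422, 523 and 464 in the controls. H2-Ab1 had 427, 378 and 386 against 394, 511 and 443, and H2-Eb1 had 309, 284 and 249 against 290, 376 and 332. The highest control, replicate 2, stood above the rest for all 3 genes.

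B cells reached 3805 ± 265 for H2-Aa, 2800 ± 230 for H2-Ab1 and 2711 ± 172 for H2-Eb1 (SD, n = 6). Alveolar type 2 cells had 1020 ± 58.8, 675 ± 38.6 and 406 ± 30.2 for the same genes. Type 2 conventional dendritic cells and interstitial macrophages had the most, with 9155 ± 1110 and 9546 ± 1204 for H2-Aa. The chains did not keep the same proportion everywhere: the ratio of H2-Aa to H2-Ab1 was 1.51 in alveolar type 2 cells (1.44 to 1.57 over 6 libraries), 1.36 in B cells (1.30 to 1.40) and 1.01 in general capillary cells (0.92 to 1.07). The ranges of these 3 classes did not overlap.

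Cd74, the invariant chain, was the most abundant member in dendritic cells, interstitial macrophages, B cells, alveolar type 2 cells and both of these endothelial classes. It lies on chromosome 18 at 60803848 to 60812652. It had 10870 ± 603 CPM in B cells, 3305 ± 206 in alveolar type 2 cells, 1090 ± 157 in general capillary cells and 581 ± 81.1 in venous cells (SD, n = 6). Cd74 stood to H2-Aa as 3.24 to 1 in alveolar type 2 cells, 2.86 in B cells, 2.54 in general capillary cells, 2.12 in type 1 conventional dendritic cells and 2.02 in venous cells. Alveolar type 1 cells, with 28 to 76 cells per library, had a Cd74 level of 165 ± 135, which rested on 1 library with 434 while the other 5 had 81.1 to 157.

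The peptide editor DM is made of H2-DMa with H2-DMb1 or H2-DMb2, of which the latter is the second beta chain gene of the mouse. General capillary cells had 72.8 ± 11.7 for H2-DMa and 111 ± 8.76 for H2-DMb1, and alveolar type 2 cells had 65.6 ± 4.23 and 106 ± 9.63 (SD, n = 6). B cells had 205 ± 19.0 for H2-DMb1. H2-DMb2 was distributed otherwise. It had 696 ± 40.8 in B cells but 0.922 ± 0.170 in general capillary cells, 0.949 ± 0.586 in venous cells and 9.37 ± 3.26 in alveolar type 2 cells.

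The ratio of H2-DMb2 to H2-DMb1 was accordingly 3.42 in B cells (3.05 to 3.89), 0.302 in type 2 conventional dendritic cells (0.202 to 0.426), 0.110 in type 1 conventional dendritic cells (0.0900 to 0.144), 0.0880 in alveolar type 2 cells and 0.00828 in general capillary cells (0.00675 to 0.0102). Of these 5 classes only B cells had more H2-DMb2 than H2-DMb1. Ccr7 dendritic cells (50 cells) had 204 UMIs of H2-DMb2 and 130 of H2-DMb1. Both genes carry the same pair of promoter letters at the same gap in the stretches printed above. General capillary cells had 38226 UMIs of H2-DMb1 beside 313 of H2-DMb2. Of all H2-DMb2 UMIs, B cells held 73.1% ± 3.31 and general capillary cells 0.449% ± 0.134.

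DO is made of H2-Oa and H2-Ob. Both were genes of B and dendritic cells: H2-Oa had 200 ± 15.8 in B cells, 129 ± 43.9 in type 2 conventional dendritic cells, 93.3 ± 17.6 in plasmacytoid dendritic cells and 87.8 ± 7.91 in type 1 conventional dendritic cells. H2-Ob had 396 ± 38.2, 71.6 ± 15.1 and 150 ± 21.0 in B, type 2 and type 1 conventional dendritic cells (SD, n = 6). Interstitial macrophages, with chain levels like those of conventional dendritic cells, had 8.06 ± 7.55 for H2-Oa and 12.8 ± 5.53 for H2-Ob. Non-immune classes had almost none: general capillary cells had 0.279 for H2-Oa and 2.54 for H2-Ob, and alveolar type 2 cells 0.751 and 0.838.

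H2-Oa also appeared apart from the chains. Basophils or mast cells had 67.4 ± 20.9 and type 2 innate lymphoid cells 48.5 ± 23.0 CPM of H2-Oa, beside H2-Ab1 levels of 28.8 and 9.25. Type 2 innate lymphoid cells had 2 UMIs of H2-Ob beside 55 of H2-Oa, while in B cells the ratio of H2-Ob to H2-Oa was 1.98. Basophils or mast cells did have H2-Ob, with 103 UMIs and 19.7 ± 8.51 CPM. Basophils or mast cells had 468 UMIs of H2-Oa and 0 of Ciita, a count that allows up to 3, and type 2 innate lymphoid cells had 1 UMI of Ciita. Both classes had as few as 9 or 10 cells in a library, and neither was tested between groups.

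Ciita, the class II coactivator, had 198 ± 16.97 in B cells, 199 ± 26.1 in type 2 and 204 ± 26.9 in type 1 conventional dendritic cells, 60.2 ± 9.19 in general capillary cells, 23.8 ± 4.65 in venous cells and 23.6 ± 7.77 in alveolar type 2 cells (SD, n = 6). General capillary cells therefore had more Ciita than alveolar type 2 cells in all 6 libraries, while their chain and Cd74 levels were lower. The ratio of Ciita to H2-Ab1 was 0.144 in general capillary cells (0.120 to 0.188), 0.102 in venous cells (0.0857 to 0.129), 0.0711 in B cells (0.0587 to 0.0814), 0.0349 in alveolar type 2 cells (0.0247 to 0.0515) and 0.0251 in type 2 conventional dendritic cells (0.0219 to 0.0291). The ranges of general capillary, B and alveolar type 2 cells did not overlap. General capillary cells held 34.4% ± 5.49 of all Ciita UMIs but 13.4% ± 4.05 of all member UMIs (SD, n = 6). The general capillary class was the most numerous one.

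The spread over single cells separates classes in which most cells carry the transcripts from classes in which a few do. Shares of cells with a UMI were taken after thinning each cell to 5000 UMIs, which left out 10525 of 91156 cells (5200 in libraries labelled p16-DTR and 5325 in controls). Pooled over libraries, H2-Ab1 was found in 72.7% of general capillary cells (95% Wilson interval 72.1% to 73.3%), 84.3% of alveolar type 2 cells (81.7% to 86.7%) and 55.3% of venous cells (53.2% to 57.4%). It was found in 99.1% of B cells but also in 7.79% of aerocytes, 7.17% of CD8 T cells, 7.42% of natural killer cells and 3.98% of alveolar fibroblasts. Free RNA was not measured, and its part in these low shares was not tested. Intervals cover counting error only.

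Cd74 was found in 86.2% of general capillary, 98.3% of alveolar type 2 and 73.1% of venous cells, against 7.27% of alveolar fibroblasts. Ciita was found in 21.6% of general capillary cells (21.1% to 22.2%), 11.3% of alveolar type 2 cells, 9.25% of venous cells and 55.3% of B cells, against 0.249% of alveolar fibroblasts and 0.666% of CD8 T cells. H2-DMb2 was found in 93.9% of B cells and 0.334% of general capillary cells, a share close to that of alveolar fibroblasts (0.315%).

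**Figure D3:**
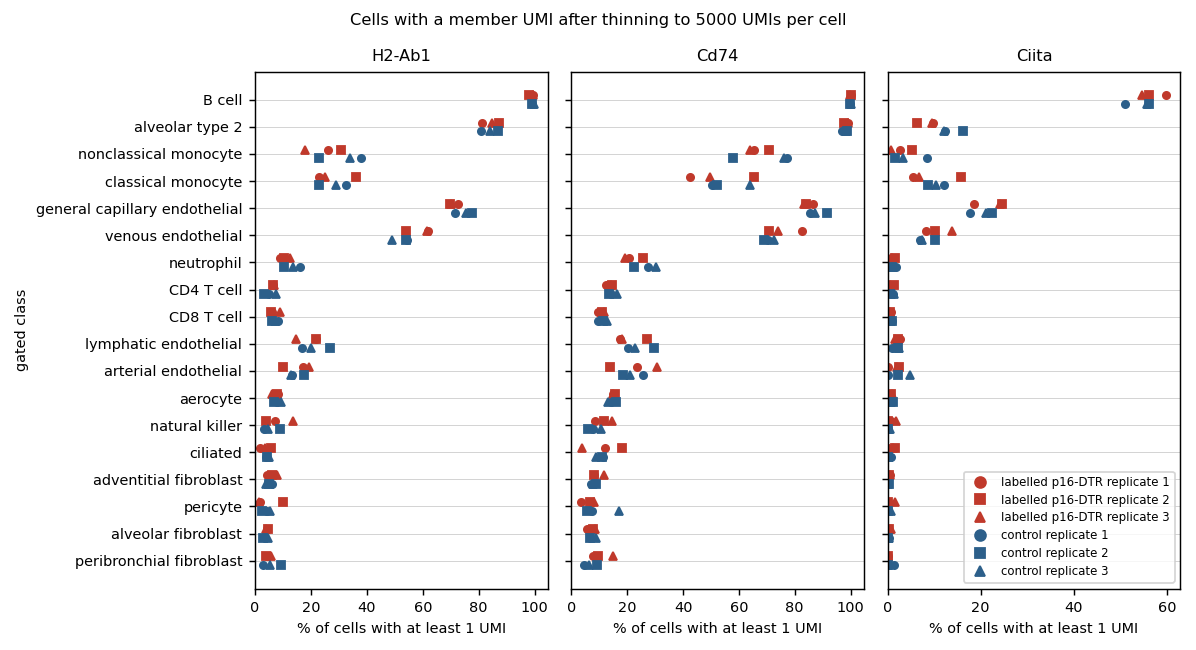
Share of cells with at least 1 UMI of H2-Ab1, Cd74 and Ciita (percent, x axes) after thinning to 5000 UMIs, by class, 1 point per library, red for libraries labelled p16-DTR and blue for controls. General capillary, venous and alveolar type 2 cells stand above the T cell, natural killer, aerocyte and alveolar fibroblast classes for all 3 genes in every library.

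Detection of H2-Aa, H2-Ab1 and Cd74 together in a thinned cell is a stricter measure. It was met by 57.0%, 54.5% and 50.7% of general capillary cells under the p16-DTR label and by 56.4%, 66.4% and 61.0% in the controls. Venous cells had 44.3%, 31.9% and 37.3% against 30.7%, 34.7% and 32.5%. Alveolar type 2 cells had 84.4% ± 5.80 against 83.4% ± 4.93, and B cells 98.5% ± 0.860 against 98.8% ± 0.406 (SD, n = 3 each). The groups overlapped in these 4 classes. Of 24 classes the groups were apart in type 2 conventional dendritic cells (97.6%, 94.05% and 100% against 92.0%, 85.7% and 93.4%) and in natural killer cells (0.658%, 0.649% and 1.71% against 0% in each control). The natural killer shares rest on few cells, 69 to 247 per library before thinning, and a count of 0 allows up to 3. The separation in these 2 of 24 classes was not tested. No UMI of any of the 10 members was seen in 3.72% ± 0.553 and 2.99% ± 1.04 of general capillary cells, against 80.6% ± 1.57 and 81.7% ± 2.45 of alveolar fibroblasts.

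Per cell, the median sum of members in general capillary cells lay between 17.4 and 27.2 UMIs per 10000 UMIs, from 3.73 to 6.72 at the 10th percentile to 45.4 to 61.4 at the 90th percentile. The 1% of cells richest in members held 4.40% to 5.96% of the member UMIs of general capillary cells, 3.10% to 5.83% in alveolar type 2 cells and 3.39% to 5.79% in B cells. In neutrophils the same 1% held 44.5% to 80.9%, and in natural killer cells 6.12% to 72.6%. Median levels in those classes were 0.885 to 1.18 and 0.191 to 0.858 UMIs per 10000.

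**Figure D4:**
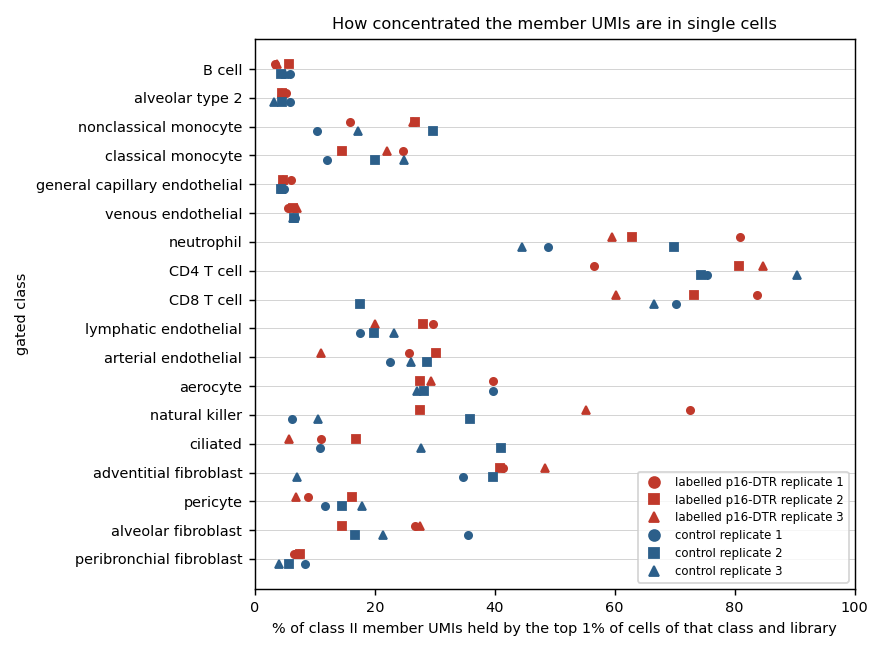
Percent of all member UMIs of a class that its top 1% of cells hold (x axis, 0 to 100%), by class, 1 point per library, red for libraries labelled p16-DTR and blue for controls. The points are near 5% in B, alveolar type 2, general capillary and venous cells and above 40% in neutrophils and CD4 T cells.

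Markers of other cell types in the non-immune classes differed by list. The 6 pan-leukocyte markers summed to 20.3 to 30.5 CPM in general capillary cells, 20.4 to 28.0 in venous cells and 13.5 to 27.6 in alveolar type 2 cells, against 7341 to 7888 in neutrophils. All 6 were detected. The 9 B-cell markers summed to 9.81 to 15.8 in general capillary cells and 8989 to 9814 in B cells, and the 8 markers of type 2 conventional dendritic cells to 0.895 to 1.80 and 3520 to 5010 in their own class. The 8 markers of type 1 conventional dendritic cells summed to 511 to 719 in general capillary, 359 to 431 in venous and 346 to 422 in alveolar type 2 cells. In their own class they summed to 4803 to 5472. The list includes Cadm1, Naaa and Wdfy4, found in 35.5%, 32.95% and 18.6% of cells outside its class. Its sums elsewhere therefore need not be dendritic RNA. The 8 interstitial macrophage markers summed to 43.1 to 64.4 in general capillary, 50.2 to 101.7 in venous and 113 to 291 in alveolar type 2 cells. They reached 969.7 to 2155 in alveolar fibroblasts and 1643 to 3218 in adventitial fibroblasts. That list includes Apoe and Maf, found in 52.8% and 34.8% of cells outside its class, so these sums need not be macrophage RNA. The part of these RNAs in the members' levels was not tested.

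Among other genes, the 8 with a level pattern most like that of H2-Aa, H2-Ab1, H2-Eb1 and Cd74 over 25 classes (Pearson r of log2(CPM + 1), 14402 genes compared, no test) were Gm20513 (0.90), H2-Eb2 (0.87), AC117662.4 (0.86), Fgd2 (0.85), Cd83 (0.83), Wdfy4 (0.83), Rab39 (0.83) and Uvrag (0.83). Gm20513 overlaps H2-Eb1 on the opposite strand and Wdfy4 was used in a gate. The members' own values were 0.97 to 1.00 for H2-DMa, H2-DMb1 and Ciita and the 4 reference genes, 0.84 for H2-DMb2, 0.78 for H2-Ob and 0.76 for H2-Oa. In general capillary cells 7 of the 8 had 0.0478 to 2.38 CPM. Cd83, whose protein prolongs surface class II, had 714 in B cells, 14.4 in alveolar type 2 cells and 2.38 in general capillary cells. Uvrag was the other one, with 496 in B cells and 200.5 in general capillary cells. Classes share libraries and depth, so these r values are descriptions.

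The rest of the pathway was taken from 7 lists with 59 genes, of which 54 are in the matrices. Ctss, the protease that makes the last cut of the invariant chain in classical antigen-presenting cells, had 552 in B cells and 2468 in interstitial macrophages but 3.96 in general capillary cells and 2.88 in alveolar type 2 cells. Ctsh, another cathepsin, had 859 in alveolar type 2 cells, 124 in venous cells and 2.83 in general capillary cells. Other proteases of the list were not low there. Ctsl, Ctsb, Ctsd and Sppl2a had 149, 105, 176 and 186 in general capillary cells against 12.4, 65.1, 18.4 and 122.5 in B cells. Ctsz and Lgmn had 45.8 and 46.0 against 168 and 89.7. In alveolar type 2 cells Ctsl had 76.8. The costimulatory genes Cd86 and Cd80 had 2.19 and 0.879 in general capillary cells against 747 and 51.3 in B cells, while Cd40 had 28.8 against 61.9. Irf1, a factor of the interferon-gamma response upstream of Ciita, had 357 in general capillary and 356 in venous cells against 73.0 in B cells. Its level did not follow the members. Classes with low member levels had 278 (aerocytes), 249.5 (adventitial fibroblasts), 238 (peribronchial fibroblasts) and 228 (arterial cells), and alveolar type 2 cells had 73.9. Rfx5, a subunit of the X-box factor, had 9.29 in general capillary cells, 27.5 in B cells and 7.81 in alveolar fibroblasts, a narrow spread beside that of the members.

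Turning to the comparison of groups, the members were first summed over all cells of a library. Cd74 had 1475, 1829 and 2108 CPM under the p16-DTR label and 1376, 1550 and 1833 in the controls. H2-Ab1 had 510, 598 and 726 against 456, 490 and 598. Library 3 of each group was the highest and library 1 the lowest for both genes, and the groups overlapped. H2-DMa had 78.1, 83.5 and 99.2 against 59.6, 70.2 and 75.1 and was the only member of 10 without overlap, where 31.1% of all genes tested did not overlap. All 10 log2 fold changes (libraries labelled p16-DTR against control) were positive, from 0.02 for H2-Ob to 0.40 for H2-DMa, with a median of 0.26 beside −0.01 over all genes. None passed edgeR's quasi-likelihood test with Benjamini-Hochberg adjustment at 0.05 (0 of 10, with 1 at an unadjusted p under 0.05), as none of 21630 genes did (0% called, 5043 with an unadjusted p below 0.05). For H2-DMa the log2 fold change was 0.40 (SE 0.11, edgeR adjusted p 0.146), and DESeq2, which called 1 of 10 members and 12.7% of all genes, gave an adjusted p of 0.0274. Fewer or more cells of a type and a change per cell cannot be told apart in these sums. Interstitial macrophages held 9.79% ± 3.05 of member UMIs under the p16-DTR label and 4.07% ± 0.131 in controls, and B cells 23.0% ± 1.08 and 28.5% ± 1.78 (SD, n = 3 each). The groups did not overlap in either share. The gates held 54, 98 and 165 interstitial macrophages under the p16-DTR label against 37, 38 and 42 in controls. For B cells the counts were 576, 776 and 894 against 861, 768 and 934.

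Within classes the composition is held fixed as far as the gates allow. The share of all genes without overlap is given for all cells, B cells and neutrophils only. Lack of overlap in other classes therefore cannot be read as particular to the members. In the 18 classes with at least 50 cells in every library, 140 of 180 gene and class pairs passed the filter on low counts. EdgeR called 1 of them, Cd74 in natural killer cells, with 17 at an unadjusted p under 0.05. By class, the lowest such share over all genes was 1009 of 12170 in ciliated cells. The highest was 3794 of 16136 in general capillary cells, so the 17 are no result about the members. DESeq2 called 4 (2.43% of all pairs were called by DESeq2). Of the 140 log2 fold changes 51 were positive and 89 negative. Over all genes in these classes edgeR called 0.434% of pairs. Without the filter on low counts edgeR called 14 of 179 member pairs and 1.71% of all pairs. In the 6 classes with 25 to 49 cells in the smallest library, edgeR called 0 of 38 member pairs, DESeq2 called 2 (0.284% of all pairs), and edgeR without the filter called 12 of 60 (0.909% of all pairs).

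**Figure D5:**
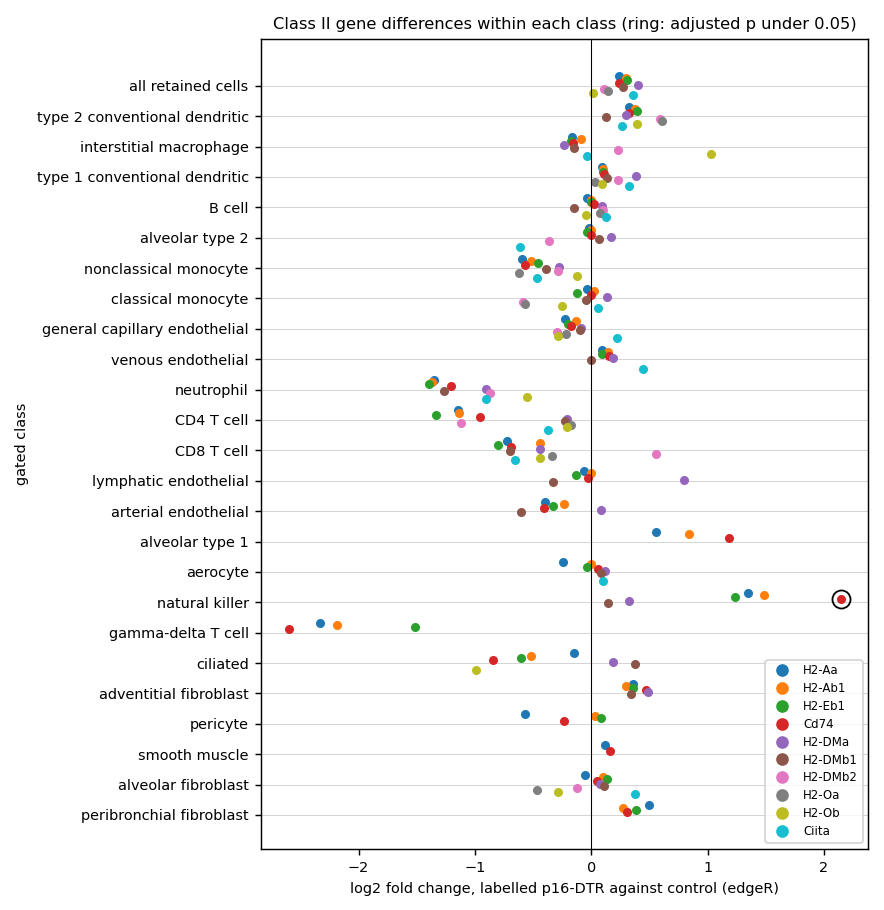
Log2 fold change of each tested member (x axis, edgeR, libraries labelled p16-DTR against control) by class, coloured by gene, with a ring around adjusted p under 0.05. Points of B, alveolar type 2, general capillary and venous cells lie between −0.62 and 0.44, and only Cd74 in natural killer cells is ringed.

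In general capillary cells all 10 members were tested and edgeR called none (0.545% of all genes were called there). At an unadjusted p under 0.05 there was 1, H2-Aa, beside 3794 of 16136 genes, and DESeq2 called 0. Of the 10, 9 had negative log2 fold changes, from −0.29 for H2-DMb2 to −0.09 for H2-DMa. H2-Aa, with the values given above, was lower in all 3 libraries labelled p16-DTR than in any control, at 388 ± 32.4 against 470 ± 50.6 (SD, n = 3 each), although 420 and 422 nearly met. Its log2 fold change was −0.23 (SE 0.10, edgeR adjusted p 0.204). Cd74 had 1096, 1009 and 921 against 1033, 1382 and 1101, which overlapped, with a log2 fold change of −0.17 (SE 0.12, edgeR adjusted p 0.425). Sums of B-cell and type 1 dendritic markers in general capillary cells were lower under the p16-DTR label as well. The 9 B-cell markers summed to 9.81 to 13.1 against 13.5 to 15.8, all detected. The 8 type 1 dendritic markers summed to 511 to 572 against 580.2 to 719, all detected. The median general capillary score on the type 1 list was 0.072, so that sum need not be dendritic RNA. The part of both lists in the result was not tested. Without control replicate 2, the library with the highest value, the log2 fold change of H2-Aa was −0.14, that of Cd74 was −0.03 and that of H2-Ab1 moved from −0.13 to −0.03. Leaving out 1 library gave H2-Aa −0.31 to −0.14.

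Ciita went the other way in the same cells, with 52.3, 71.1 and 68.3 CPM against 47.2, 62.9 and 59.1. The groups overlapped, and replicate 1 was the lowest of each group. Its log2 fold change was 0.22 (SE 0.15, edgeR adjusted p 0.382), which became 0.10 when control replicate 1 was left out. Leaving out single p16-DTR libraries gave 0.35 for replicate 1 and 0.14 for replicate 2. The difference between the Ciita and chain fold changes was not tested.

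In venous endothelial cells, where 3.08% of all genes were called, edgeR called 0 of 7 tested members and DESeq2 called 0. With edgeR 1 had an unadjusted p under 0.05, beside 2073 of 12013 genes. That 1 was Ciita, with 25.1, 26.4 and 30.4 against 19.5, 23.8 and 17.7. All 3 libraries labelled p16-DTR were above all controls, and the log2 fold change was 0.44 (SE 0.14, edgeR adjusted p 0.130). In venous cells 3 members in all did not overlap between the groups. H2-Aa had 295 ± 37.6 against 280 ± 21.4 and Cd74 609 ± 114 against 553 ± 32.4 (SD, n = 3 each), with log2 fold changes of 0.09 and 0.16. The type 1 dendritic markers, 7 of 8 detected, were also higher there, at 407 to 431 against 359 to 385, and their part was not tested. The median venous score on that list was 0.055, so that sum need not be dendritic RNA. The share of venous cells with H2-Aa was 66.1% ± 2.50 against 60.8% ± 2.89, without overlap (exact permutation p 0.1, the smallest that 3 against 3 libraries allow, adjusted p 0.625 over 25 classes).

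In alveolar type 2 cells, where 0.00861% of all genes were called, edgeR called 0 of 8 tested members and DESeq2 called 0. With edgeR 1 had an unadjusted p under 0.05, beside 1465 of 11616 genes. Ciita had 16.95, 20.7 and 16.5 under the p16-DTR label and 32.9, 33.9 and 20.8 in the controls. The groups did not overlap, but 20.7 and 20.8 were next to each other. The log2 fold change was −0.62 (SE 0.18, edgeR adjusted p 0.237), and the share of cells with Ciita was 8.57% ± 1.93 against 13.5% ± 2.36 (SD, n = 3 each, exact permutation p 0.1). The 8 alveolar type 2 markers, all detected, were higher under the p16-DTR label (202400 to 214800 against 185500 to 197100 CPM), and their part was not tested. The chains and Cd74 overlapped between the groups: H2-Ab1 had 660 ± 11.3 against 691 ± 53.8, and Cd74 3225 ± 153 against 3384 ± 251 (SD, n = 3 each), with log2 fold changes of −0.02 for H2-Aa and −0.04 for H2-Eb1.

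The other endothelial classes held no call. EdgeR called 0 of 7 in aerocytes (0.328% of all genes), 0 of 6 in arterial cells (0%) and 0 of 6 in lymphatic cells (0.142%), with 0 members at an unadjusted p under 0.05, and DESeq2 called 0 in each. In aerocytes the share of cells with H2-Aa was 7.41% ± 1.73 against 10.8% ± 1.58, without overlap (SD, n = 3 each; p 0.1 by exact permutation, 0.625 adjusted). The mesenchymal classes, with the low levels given above, had 0 of 10 called in alveolar fibroblasts (1.03% of all genes), 0 of 6 in adventitial fibroblasts (0.0289%), 0 of 4 in peribronchial fibroblasts (0.865%), 0 of 4 in pericytes (0.244%) and 0 of 2 in smooth muscle (0%). No member reached an unadjusted p under 0.05 there with edgeR, and DESeq2 called 0. Ciliated cells had 0 of 7 (0.0575%; 0 unadjusted, 0 by DESeq2) and alveolar type 1 cells 0 of 3 (0.311%; 1 unadjusted, 0 by DESeq2).

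Among classical antigen-presenting cells, B cells had the closest values. Cd74 had 11810, 9969 and 10610 CPM under the p16-DTR label and 10960, 11050 and 10800 in the controls, and the controls lay inside the range of the others. H2-DMb2 had 778, 684 and 672 against 675, 694 and 676. EdgeR called 0 of 10 (0% of all genes; 0 at an unadjusted p under 0.05, 0 by DESeq2), and log2 fold changes ran from −0.15 for H2-DMb1 to 0.13 for Ciita. H2-DMb1 alone of the 10 did not overlap, at 192 ± 19.3 against 218 ± 2.72 (SD, n = 3 each), where 18.9% of all genes tested in B cells did not overlap. The ratio of H2-DMb2 to H2-DMb1 was 3.68, 3.58 and 3.89 against 3.05, 3.205 and 3.11. The groups were apart, and the ratio was not tested.

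Type 2 conventional dendritic cells, with 35 to 86 cells per library, had no called member with the filter on low counts. H2-Aa had 9869, 9261 and 10730 against 7589, 8305 and 9183, which did not overlap. H2-Eb1 had 8114, 7522 and 8948 against 5865, 6316 and 7538, and overlapped by the closeness of 7522 and 7538. All 10 log2 fold changes were positive, from 0.13 for H2-DMb1 to 0.61 for H2-Oa. Without the filter on low counts edgeR called 6 of 10, beside 0.909% of all pairs in the 6 smaller classes. With the filter 7 had an unadjusted p under 0.05 (721 of 9356 genes), but edgeR called 0 (0.0214% of all genes) and DESeq2 0. The lowest edgeR adjusted p was 0.448, for H2-Eb1 (0.39, SE 0.11). The share of these cells with H2-DMb2 was 54.8%, 48.8% and 52.2% against 26.0%, 37.1% and 32.9%, with no overlap (exact permutation p 0.1, adjusted p 0.833). The 8 markers of the class itself, all detected, summed to 4130 to 5010 against 3520 to 3934 and did not overlap either; their part in the result was not tested. With 27.1% of these cells near the cut, the class changes with its cut. With a cut raised by 0.1 the H2-Eb1 value was 0.28 (edgeR adjusted p 0.604).

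Type 1 conventional dendritic cells also had 10 of 10 positive values, with a median of 0.10 beside 0.35 in the type 2 class. EdgeR called 0 (0% of all genes), DESeq2 called 1, and 2 had an unadjusted p under 0.05 (738 of 10095 genes). The 2 were H2-DMa and Ciita. H2-DMa had 954, 904 and 850 against 703, 744 and 660, all of the first above all of the second, with a log2 fold change of 0.39 (SE 0.08, edgeR adjusted p 0.357; DESeq2 adjusted p 0.0216). Interstitial macrophages had 0 of 9 called (0.0113%), 1 at an unadjusted p under 0.05, and DESeq2 called 0, and their Cd74 had 18100 ± 1818 against 19770 ± 651 (SD, n = 3 each). Their log2 fold changes ran from −0.24 to 1.03, with 7 negative and 2 positive. Classical monocytes had 0 of 10 (0%; 0 unadjusted, 0 by DESeq2) and nonclassical monocytes 0 of 10 (0%; 1 unadjusted, 0 by DESeq2). All 10 values of nonclassical monocytes were negative, with a median of −0.46. Alveolar macrophages, with 13 to 29 cells per library, were not tested. Their summed level was 5167, 6693 and 2940 under the p16-DTR label and 9464, 10820 and 8601 in the controls, which did not overlap. Dendritic marker sums moved with it. The 8 type 2 markers summed to 29.5 to 43.9 against 63.4 to 198.7, all detected. The 8 type 1 markers summed to 532 to 606.6 against 611.9 to 873, all detected. The median type 1 dendritic score of alveolar macrophages was 0.104, so that sum need not be dendritic RNA. The part of both lists was not tested.

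In natural killer cells, neutrophils and T cells the top 1% of cells held a larger part of the member UMIs than in B cells. In natural killer cells Cd74 had 116, 33.2 and 134 CPM under the p16-DTR label and 17.02, 15.5 and 26.7 in the controls. Replicates 1 and 3 of the first group were far above the rest and replicate 2 was just above the highest control. The log2 fold change was 2.15 (SE 0.41, edgeR adjusted p 0.0386). This was the 1 member called of 6 tested, beside 0.735% of all genes. At an unadjusted p below 0.05 there were 4 members, beside 953 of 9521 genes, and DESeq2 called 2 (Cd74 and H2-Ab1). Of the 6 fits that left out 1 library, only that without p16-DTR replicate 2 kept the call (adjusted p 2.96e-05). Without any other single library it was lost, with edgeR adjusted p-values of 0.0864 to 0.207. The log2 fold change was 1.81 to 2.53 in the 6 fits.

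The top 1% of natural killer cells, 2 cells in replicate 1 and 3 in replicate 3 of the libraries labelled p16-DTR, held 527 and 670 member UMIs together with 152 and 342 UMIs of B-cell markers. The 2 top cells of replicate 2 held 59 member UMIs, 1 B-cell marker UMI and 72 UMIs of type 2 dendritic markers. The top cells of the 3 controls held 6, 48 and 41 member UMIs and 1, 2 and 12 B-cell marker UMIs. They held 5, 57 and 64 UMIs of type 2 dendritic markers. That list includes Cd7, found in 51.5% of its own class and 5.46% of other cells. The median score of natural killer cells on that list was 0.025, so these UMIs need not be dendritic RNA. All 9 B-cell markers were detected in natural killer cells, and they summed to 11.2 to 110 CPM under the p16-DTR label and 22.0 to 26.4 in the controls. The type 1 dendritic markers, 7 of 8 detected, summed to 15.4 to 24.1 and 11.35 to 15.2. Without the top 1% of cells by member UMIs (chosen after seeing the data) the marker sums were 10.96 to 15.5 and 21.3 to 24.2, and the log2 fold change of Cd74 was 0.60 (edgeR adjusted p 0.527). These cells were removed for the same genes that are measured, which lowers the levels by construction.

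Neutrophils gave the opposite direction. Cd74 had 336, 318 and 345 under the p16-DTR label and 865, 427 and 1167 in the controls. H2-Aa had 161, 123 and 115 against 384, 178 and 523. Both groups were apart for both genes, and the controls differed among themselves by more than the other group did. All 9 tested members were negative, from −1.39 for H2-Eb1 to −0.55 for H2-Ob, and 6 of the 9 did not overlap, as did 17.6% of all genes tested in neutrophils. EdgeR called 0 (0.00918% of all genes), 7 had an unadjusted p below 0.05 (1161 of 10894 genes), and DESeq2 called 2. For Cd74 the log2 fold change was −1.21 (SE 0.27, edgeR adjusted p 0.297), and the call was made in 1 of the 6 fits without 1 library, that without control replicate 2 (−1.50, adjusted p 0.00495). Over the 6 fits the value ran from −1.50 to −0.88, the latter without control replicate 3, and the highest adjusted p was 0.559. The share of neutrophils with H2-Aa was 11.4% ± 0.787 against 17.7% ± 4.58 (SD, n = 3 each; p 0.1 by exact permutation, 0.625 adjusted), beside 6.90% of CD8 T cells.

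Sums of B-cell and alveolar type 2 markers moved with these neutrophil values. The 9 B-cell markers summed to 30.9 to 50.6 CPM in neutrophils of the libraries labelled p16-DTR and 60.5 to 77.1 in controls, all 9 being detected. The 8 interstitial macrophage markers summed to 349 to 527 and 263 to 618, all 8 detected, and overlapped. The 8 alveolar type 2 markers, all detected, summed to 324 to 327 and 328 to 509. The top 1% of neutrophils, 4 to 9 cells per library, held 6257, 2534 and 3451 member UMIs under the p16-DTR label. In the controls they held 9155, 2638 and 6347. Their interstitial macrophage marker UMIs were 1115, 304 and 655 against 1013, 263 and 595. Their type 1 dendritic marker UMIs were 135, 75 and 92 against 144, 130 and 401. The part of these RNAs in the result was not tested. Without the top 1% of cells the fold changes were larger (Cd74 −1.86, edgeR adjusted p 0.359; H2-Aa −2.27, adjusted p 0.309). The median sum per neutrophil was also apart, at 0.885, 0.926 and 0.941 against 1.09, 1.02 and 1.18 UMIs per 10000.

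T cells had negative medians as well, with no call. CD4 T cells had 0 of 10 (0.309% of all genes; 1 unadjusted, 0 by DESeq2) at a median of −0.66 and CD8 T cells 0 of 10 (0.182%; 1 unadjusted, 0 by DESeq2) at −0.55. In CD4 T cells the log2 fold change of Cd74 was −0.95, which became −0.56 when control replicate 1 was left out and −0.75 without the top 1% of cells. Those top cells, 4 to 7 per library, held 824, 4188 and 5300 member UMIs under the p16-DTR label and 7231, 1413 and 9931 in the controls, and the type 2 dendritic marker UMIs in them were 5, 204 and 141 against 336, 2 and 359. Their part was not tested. The median sum per CD4 T cell was 0.692 ± 0.0900 against 0.664 ± 0.108 UMIs per 10000 (SD, n = 3 each) and overlapped. In CD8 T cells the 8 type 1 dendritic markers summed to 25.3 to 33.3 CPM against 39.9 to 43.3 in controls. The 8 type 2 dendritic markers summed to 156 to 175.5 against 99.99 to 145. All of both lists were detected, and their part was not tested. The median type 2 dendritic score of CD8 T cells was 0.025, so that sum need not be dendritic RNA. In gamma-delta T cells edgeR called 0 of 4 (0.0119%), with 4 at an unadjusted p under 0.05 (476 of 8387 genes), and DESeq2 called 1. Their Cd74 log2 fold change was −2.60 (edgeR adjusted p 0.378) and −0.06 without the top 1% of cells (adjusted p 0.993). Without control replicate 1 it was −3.06 and called (edgeR adjusted p 0.000157). The 8 type 2 dendritic markers, all detected, summed to 91.3 to 108.9 against 58.8 to 82.8 in these cells, and their part was not tested. Which cell type these UMIs came from was not tested either.

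Of 792 tested gene and class pairs of the pathway lists, 1 was higher and 3 were lower under the p16-DTR label, with a median log2 fold change of 0.01 beside −0.00 over all genes. That is 0.505% of the pairs, near the 0.434% called over all genes in these classes, so the count is no result about the lists, and the genes are given for themselves. The 3 lower ones were endothelial. Socs1, a feedback inhibitor of interferon-gamma signalling, had 11.5, 14.1 and 12.4 CPM against 26.8, 20.1 and 28.9 in general capillary cells, with every library of the first group under every control. It fell by 0.95 on the log2 scale (SE 0.14, edgeR adjusted p 0.0472), a call made in 1 of the 6 fits without 1 library (highest adjusted p 0.140). In venous cells Socs1 had 9.62, 8.39 and 10.7 against 20.7, 20.9 and 23.2, a change of −1.16 (SE 0.14, edgeR adjusted p 0.00625) that was called in 6 of 6 such fits.

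Ctsh in venous cells had 101, 107 and 92.2 against 161, 134 and 151, also apart. It changed by −0.56 (SE 0.09, edgeR adjusted p 0.0147), called in 5 of 6 fits without 1 library (highest adjusted p 0.0729). The 1 higher gene was Ifngr1, a chain of the interferon-gamma receptor, in alveolar fibroblasts, with 634, 573 and 650 against 410, 444 and 478 and a change of 0.51 (SE 0.08, edgeR adjusted p 0.0467). That call was made in 0 of the 6 fits without 1 library (highest adjusted p 0.145). Socs1 and Ifngr1 stand in the same list of interferon-gamma input genes, of which 145 pairs were tested, 1 called higher and 2 lower (2.07% of the pairs, beside 0.434% over all genes). Among the 200 pairs of the transcription list, which holds Rfx5 and the other factors of the X and Y boxes, edgeR called 0.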

How the data were processed

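The authors sequenced 6 lung libraries with a 3′ single-cell kit, 1 mouse each, and deposited raw UMI count matrices made with Cell Ranger 8.0.1 against mm10, per the file headers and the submitters' processing notes; strand settings are not given in the sources used here. The members and all gene lists were chosen with earlier results of these data known.

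Barcodes under 300 genes or 500 UMIs, or over 15% mitochondrial, were dropped. Cells were gated on summed marker scores (39 lists, lineage cut 0.25, class cut 0.4 except 0.35 for arterial, 0.3 for type 2 dendritic and type 2 innate lymphoid and 0.2 for CD4 and CD8 T cells). No doublet caller was run. Cells of more than 1 lineage were left out, as were cells past more than 1 of the B-cell, T-cell, neutrophil and myeloid cuts. That leukocyte rule had no natural killer branch, and its myeloid branch was not applied to cells past the neutrophil cut. Mixtures of natural killer with B cells and of neutrophils with macrophages were therefore not screened. Counts were summed per library and class and tested with edgeR 4.0.16 (R 4.3.3): quasi-likelihood, low-count filter, TMM factors, no replicate block, Benjamini-Hochberg adjustment over all genes of a class, threshold 0.05. The 18 classes with at least 50 cells per library were the main set, and 6 with 25 to 49 were added after seeing the data. For shares, cells were thinned to 5000 UMIs and compared by two-sided exact permutation over libraries, adjusted over 25 classes for each gene. Each library is 1 mouse, so p-values measure the spread between mice.

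Same-numbered libraries correlated in their deviations at r = 0.295, −0.0471 and 0.312 over 18496 genes. The labels state no pairs, and the numbers were not treated as pairs. All 10 members are named, with the pathway genes that passed the test (at most 3 per class) and the 8 non-members of highest likeness; pathway levels named without a call were chosen after their values were seen. Alternatives were DESeq2 1.42.0, other scaling, no filter, the replicate block, each library left out, stricter cell filter and gate, mixed cells kept, other thinning, and, chosen after seeing the data, removal of the top 1% of cells. The edgeR script was tested on simulated data. Positions come from GENCODE M21 (GRCm38), matched for 31011 of 31054 features, and promoters from RefSeq GRCm38.p6. Depth limits small levels: a count of 0 allows up to 3 counts.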

Additional observations from a re-analysis of the deposited data

How the results depend on the processing

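Of the members tested within the 18 classes of at least 50 cells per library, edgeR called 1, DESeq2 called 4 (2 higher, 2 lower) and edgeR without the filter on low counts called 14 (6 higher, 8 lower); over all genes these settings called 0.434%, 2.43% and 1.71% of pairs. In the 6 smaller classes the counts were 0, 2 and 12. Leaving out 1 library gave 0 to 6: 5, all higher, without p16-DTR replicate 2, 6, all lower, without control replicate 2, and 0 otherwise. The stricter gate, keeping mixed cells, and removing the top 1% of cells each gave 0. Over all cells edgeR called 0 and DESeq2 1. With the replicate block, 1 member was called within classes (Cd74 in natural killer cells, 2.24, edgeR adjusted p 0.0023), and 0 over all cells. Replicate numbers paired the libraries only in part. Over all cells, p16-DTR replicates 1 and 3 correlated best with the controls of the same number (0.295 and 0.312). For p16-DTR replicate 2 the best was control replicate 3 (0.0826). In general capillary cells the same-numbered values were 0.0962, −0.315 and 0.0431. The cause of these differences was not tested. No share over all genes is given for the fits without 1 library, the gate and cell settings or the replicate block. Their counts therefore cannot be read as particular to the members.

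The difference in the share of alveolar type 2 cells with H2-Ab1 (0.563 percentage points) changed sign when cells were thinned to 3000 UMIs (−1.34), and ranged from −1.02 to 2.18 when 1 library was left out, with −0.842 without p16-DTR replicate 2. Without the filter, results passed that were not called with it: Ciita in alveolar type 2 cells (edgeR adjusted p 0.0253), H2-Eb1 in type 2 conventional dendritic cells (0.0002045), and in neutrophils Cd74 (2.23e-06) and H2-Ab1 (8.87e-07). Keeping mixed cells raised the summed level from 190 to 274 CPM in aerocytes and from 51.0 to 87.7 in alveolar fibroblasts; without the top 1% of cells it was 131 and 39.1. Of all alternative values, 264 did not change (tested values kept their direction and side of the threshold, and levels and counts stayed within 1 SD or 1.5 times), 3 changed sign, 7 newly passed, 8 no longer passed and 16 moved. Libraries of 27 to 95 type 1 and 35 to 86 type 2 conventional dendritic cells, and 13 to 29 alveolar macrophages, limit what these classes can show.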
